A study of Mus musculus with 8 samples.

Results

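The TNF superfamily ligands are described here by 10 genes: Lta, Ltb, Tnf, Fasl, Tnfsf11, Tnfsf14, Tnfsf8, Tnfsf10, Cd40lg and Cd70. Each was taken at the probeset that the platform annotation pairs with its symbol and no other, with the highest mean over the 8 arrays where a gene had several. All 10 were found among 19938 genes with such a probeset, and each of the 10 had 1 probeset. Gene expression was measured on 8 arrays, 1 per culture, in 4 groups of 2 named biological replicates: wild-type Th1, Tet2-/- Th1, wild-type Th17 and Tet2-/- Th17 cells, all on the C57BL/6 background. Naive CD4+ cells (CD25-, CD62L high, CD44 low) came from lymph node and spleen, so all groups share this origin and the stimulation with antibodies to CD3 and CD28. Th1 cultures received IL-2 (30 U/ml) and IL-12 (10 ng/ml) with IL-4 blocked by antibody. Th17 cultures received IL-6 (10 ng/ml) and TGF-β1 (0.5 ng/ml), with both IL-4 and interferon-γ blocked. The age and sex of the mice, how the Tet2 allele was made, whether cells of several mice were pooled, and whether the Th17 cultures also held IL-1β or IL-23 are not given in the sources used here. Tet2 is an enzyme that oxidises 5-methylcytosine, a step towards removing methylation from DNA, and the series asks how this bears on the cytokines that T cells make.

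Ligands of this superfamily are made as trimers, mostly anchored in the membrane, and some are cut from the cell surface or secreted. They bind receptors of the matching receptor superfamily, which recruit TRAF adaptors and turn on NF-kB, or, where the receptor carries a death domain, caspases. In helper T cells many of them appear after stimulation of the T cell receptor. Lymphotoxin-α (Lta) is secreted, or held at the membrane by lymphotoxin-β (Ltb). TNF (Tnf) is a principal inflammatory cytokine. Fas ligand (Fasl) and TRAIL (Tnfsf10) trigger death receptors. RANKL (Tnfsf11) drives osteoclast formation, LIGHT (Tnfsf14) binds HVEM and the lymphotoxin-β receptor, and CD30 ligand (Tnfsf8) and CD70 (Cd70) engage CD30 and CD27. CD40 ligand (Cd40lg) is the signal by which helper T cells activate B cells and dendritic cells.

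Ltb, Tnf and Lta lie next to each other in this order on chromosome 17, and Cd70 and Tnfsf14 are likewise neighbours there, beside Tnfsf9. The 250 bases upstream of the start of Lta, Tnf and Ltb are shown for a difference of sign between the cell types. Ltb was higher in Th17 cells, while the estimates of Lta and Tnf were lower. Of these neighbours only Lta passed the test, and in Tet2-/- cells alone. The group means of Lta and Tnf fell in the same order. The sequences shown come from RefSeq for the build GRCm38.p6. They run 5′ to 3′ on the strand of the gene, and capitals mark each CG, the dinucleotide whose methylation Tet2 acts on. The windows are chr17:35205352-35205601 on the minus strand for Lta, chr17:35202008-35202257 on the minus strand for Tnf and chr17:35194257-35194506 on the plus strand for Ltb.
Lta: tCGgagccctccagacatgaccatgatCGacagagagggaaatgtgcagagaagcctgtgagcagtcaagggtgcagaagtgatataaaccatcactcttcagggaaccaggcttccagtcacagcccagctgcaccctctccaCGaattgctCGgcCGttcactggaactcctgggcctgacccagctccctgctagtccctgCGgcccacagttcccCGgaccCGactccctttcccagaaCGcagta
Tnf: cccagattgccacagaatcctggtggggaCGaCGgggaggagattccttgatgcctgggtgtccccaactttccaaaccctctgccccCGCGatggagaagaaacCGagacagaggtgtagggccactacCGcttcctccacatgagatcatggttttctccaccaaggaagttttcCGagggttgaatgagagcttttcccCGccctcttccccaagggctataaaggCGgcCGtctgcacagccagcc
Ltb: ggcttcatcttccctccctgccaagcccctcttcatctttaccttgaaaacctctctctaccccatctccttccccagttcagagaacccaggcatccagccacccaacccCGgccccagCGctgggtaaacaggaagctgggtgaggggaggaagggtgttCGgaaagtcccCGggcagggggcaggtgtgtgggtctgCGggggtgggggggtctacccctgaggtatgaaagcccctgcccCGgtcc

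The window of Lta held 9 CG, that of Tnf 10 and that of Ltb 6, beside a median of 6 over the 32851 windows of the same length in the RefSeq table, of which 92.1% held at least 1. The AP-1 motif TGANTCA, searched on both strands, was in 0 of these 3 windows and in 6.75% of all windows. The NFAT motif TGGAAA, on either strand, was in 1 of the 3, that of Tnf, and in 18.6% of all windows. These are counts of letters; methylation and factor binding were not measured in these data. Of the other members, Fasl held 7 CG in its window, Tnfsf8 8, Tnfsf10 6, and Tnfsf11 and Tnfsf14 4 each. The window of Tnfsf14 held 1 AP-1 and 1 NFAT motif and that of Tnfsf10 1 NFAT motif. Cd40lg and Cd70 were not matched.

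Array values are given in log2 units, so that a difference of 1 is a doubling. Array medians lay between 6.47 and 6.53. The T cell genes Cd3e and Cd4 read 11.00 to 11.49 and 10.15 to 10.44. Ifng read 10.18 to 11.89 on the Th1 arrays and 6.00 to 6.07 on the Th17 arrays, and Il17a 5.89 to 6.20 and 8.91 to 9.85, so both follow the labelled cell types. Of 5 Th1 markers, Ifng, Tbx21 and Il12rb2 were lower in Th17 cells of either genotype at a limma adjusted p under 0.05. Il12rb2 still read 10.14 to 10.56 on the Th17 arrays. Cxcr3 did not pass (-0.15 in wild-type and -0.16 in Tet2-/- cells). Il18r1 went the other way, by 0.29 (limma adjusted p = 0.329) and 0.88 (0.00566). All 4 measured Th17 markers were higher in Th17 cells at that threshold. The deposited table gives no detection measure, so the 95th percentile of 1027 olfactory receptor genes, which T cells are not known to express, served as a low-level mark. It lay at 6.87 in wild-type Th1, 6.94 in Tet2-/- Th1, 6.58 in wild-type Th17 and 6.56 in Tet2-/- Th17 cells. The probeset of Tet2 read 8.03 and 8.14 in wild-type and 7.97 and 8.12 in Tet2-/- Th1 cells, and 8.51 and 8.53 against 8.37 and 8.42 in Th17 cells. Whether it covers the deleted stretch is unknown here, so it checks no genotype. Transcripts of the sex chromosomes varied among the Th17 arrays. Xist read 5.20 (replicate 1) and 10.09 (replicate 2) in wild-type Th17 cells and 8.62 and 11.27 in Tet2-/- Th17 cells, against 4.83 to 5.11 in Th1 cells. The mean of Eif2s3y, Kdm5d and Uty in the same Th17 arrays was 8.80, 7.82, 8.71 and 4.85.

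**Figure D1:**
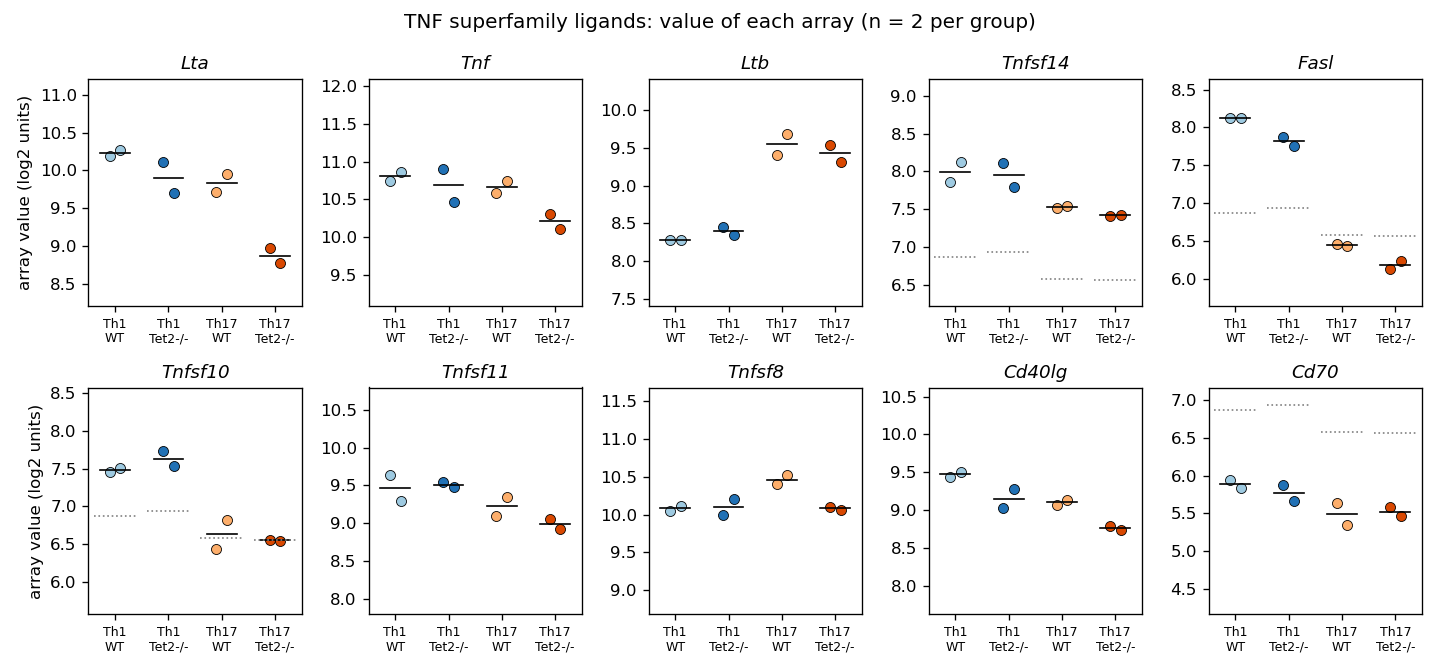
Value of each array in log2 units (y axis, one panel per gene, each spanning the same range) for the 10 ligand genes in the 4 groups (x axis). Points are the 2 arrays of a group, black bars their mean and dotted grey bars the 95th percentile of olfactory receptor genes where it falls in the panel; Fasl and Tnfsf10 are high in Th1, Ltb in Th17, and Lta lowest in Tet2-/- Th17 cells.

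The first comparison asks how the ligands differ between Th17 and Th1 cells. Fasl and Tnfsf10 were lower and Ltb higher in Th17 cells, in either genotype. Fasl was 3.21-fold lower in wild-type and 3.11-fold lower in Tet2-/- Th17 cells, and Tnfsf10 was 1.81-fold and 2.11-fold lower. Ltb was 2.41-fold and 2.04-fold higher. Lta, Tnfsf11 and Tnfsf14 passed the test among Tet2-/- cells, all lower in Th17 cells, and Lta by 2.03-fold. In all, 3 of 10 members were called in wild-type cells (1 higher, 2 lower), where 8.47% of all genes were called, and 6 of 10 in Tet2-/- cells (1 higher, 5 lower), where 10.4% were. The test was limma across all genes with Benjamini-Hochberg adjustment, and calls are genes with an adjusted p under 0.05.

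Fasl, the ligand of the death receptor Fas, read 8.13 and 8.12 in wild-type Th1, 7.87 and 7.76 in Tet2-/- Th1, 6.46 and 6.43 in wild-type Th17 and 6.13 and 6.23 in Tet2-/- Th17 cells. No arrays of any of these groups overlapped. The log2 difference between Th17 and Th1 cells was -1.68 (SE 0.109, confidence interval -1.92 to -1.45, limma adjusted p = 1.48e-06) in wild-type and -1.64 (confidence interval -1.87 to -1.40, limma adjusted p = 2.08e-06) in Tet2-/- cells. Both Th17 means lay within the range of olfactory receptor genes, so expression of Fasl is not shown there and the size of the difference is uncertain. The median of those genes was also lower in Th17 than in Th1 cells, at 5.10 against 5.42 in wild-type and 5.17 against 5.49 in Tet2-/- cells. In these bulk cultures, fewer cells with the transcript and less RNA per cell cannot be told apart.

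Tnfsf10, which encodes TRAIL, read 7.46 and 7.51 in wild-type Th1 and 7.73 and 7.53 in Tet2-/- Th1 cells. In Th17 cells it read 6.44 and 6.82 (wild-type) and 6.56 and 6.54 (Tet2-/-), so all 4 Th17 arrays lay below all 4 Th1 arrays. The difference was -0.85 (SE 0.136, limma adjusted p = 0.00207) in wild-type and -1.08 (limma adjusted p = 0.000318) in Tet2-/- cells. The Tet2-/- Th17 mean of 6.55 was within the range of olfactory receptor genes and the wild-type mean of 6.63 just above it.

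Ltb anchors lymphotoxin-α at the membrane. It read 8.28 on both wild-type Th1 arrays and 8.45 and 8.35 in Tet2-/- Th1 cells, against 9.41 and 9.68 in wild-type and 9.54 and 9.31 in Tet2-/- Th17 cells. The Th17 and Th1 arrays did not overlap. Its difference was 1.27 in wild-type cells (SE 0.134, confidence interval 0.98 to 1.56, limma adjusted p = 9.05e-05) and 1.03 in Tet2-/- cells (confidence interval 0.74 to 1.32, limma adjusted p = 0.000402). The estimates of its neighbours Lta and Tnf had the opposite sign, and of these only that of Lta in Tet2-/- cells passed the test.

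Lta read 10.19 and 10.27 in wild-type Th1, 10.11 and 9.70 in Tet2-/- Th1, 9.71 and 9.95 in wild-type Th17 and 8.98 and 8.77 in Tet2-/- Th17 cells. The highest group was wild-type Th1; the arrays of Tet2-/- Th1 and wild-type Th17 cells overlapped, and Tet2-/- Th17 lay below every other group. Between Th17 and Th1 cells Lta differed by -0.40 in wild-type cells (confidence interval -0.74 to -0.06, limma adjusted p = 0.133) and by -1.02 in Tet2-/- cells (confidence interval -1.36 to -0.69, limma adjusted p = 0.00116). Tnf followed the same order of groups in a narrower range, with 10.75 and 10.86 in wild-type Th1, 10.90 and 10.47 in Tet2-/- Th1, 10.59 and 10.74 in wild-type Th17 and 10.31 and 10.11 in Tet2-/- Th17 cells. The Tet2-/- Th17 arrays lay below those of the other 3 groups, and the wild-type arrays of the cell types lay side by side without overlap. Tnf differed by -0.14 (confidence interval -0.48 to 0.19, limma adjusted p = 0.626) in wild-type and by -0.47 (confidence interval -0.81 to -0.14, limma adjusted p = 0.0725) in Tet2-/- cells.

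Tnfsf14, the gene of LIGHT, read 7.86 and 8.12 in wild-type and 8.11 and 7.79 in Tet2-/- Th1 cells, and 7.52 and 7.54 against 7.41 and 7.43 in Th17 cells. Every Th17 array lay below every Th1 array, by -0.46 in wild-type (limma adjusted p = 0.0533) and -0.53 in Tet2-/- cells (limma adjusted p = 0.0264). The latter call ended without Tet2-/- Th1 replicate 1 (-0.37, adjusted p = 0.224 by limma), Tet2-/- Th17 replicate 1 (0.150) or replicate 2 (0.110). Tnfsf11, which encodes RANKL, read 9.64 and 9.29 in wild-type and 9.54 and 9.48 in Tet2-/- Th1 cells, and 9.10 and 9.35 in wild-type and 9.05 and 8.92 in Tet2-/- Th17 cells. The wild-type arrays of the cell types overlapped (-0.24, limma adjusted p = 0.353) and the Tet2-/- arrays did not (-0.53, limma adjusted p = 0.0363). That call ended without any 1 of the 4 Tet2-/- arrays, with adjusted p of 0.171 and 0.104 without Th1 replicates 1 and 2 and of 0.122 and 0.204 without Th17 replicates 1 and 2 in limma.

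The remaining members did not pass the test between the cell types. Tnfsf8, the gene of CD30 ligand, read 10.05 and 10.11 in wild-type and 10.00 and 10.20 in Tet2-/- Th1 cells, 10.40 and 10.52 in wild-type Th17 and 10.10 and 10.06 in Tet2-/- Th17 cells. Wild-type Th17 cells thus stood above the other 3 groups, whose arrays overlapped. Its difference was 0.38 in wild-type cells (confidence interval 0.11 to 0.65, limma adjusted p = 0.0773) and -0.02 in Tet2-/- cells (confidence interval -0.29 to 0.25). Cd40lg read 9.44 and 9.50 in wild-type Th1, 9.02 and 9.28 in Tet2-/- Th1, 9.07 and 9.13 in wild-type Th17 and 8.79 and 8.73 in Tet2-/- Th17 cells. The wild-type Th17 arrays lay within the range of the Tet2-/- Th1 arrays. Th17 minus Th1 gave -0.37 (limma adjusted p = 0.0907) in wild-type and -0.39 (limma adjusted p = 0.0705) in Tet2-/- cells. Cd70, at 5.34 to 5.94 on all arrays, lay within the range of olfactory receptor genes in every group, so its expression is not shown. Its arrays read 5.94 and 5.83 in wild-type Th1, 5.87 and 5.67 in Tet2-/- Th1, 5.64 and 5.34 in wild-type Th17 and 5.58 and 5.46 in Tet2-/- Th17 cells.

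**Figure D2:**
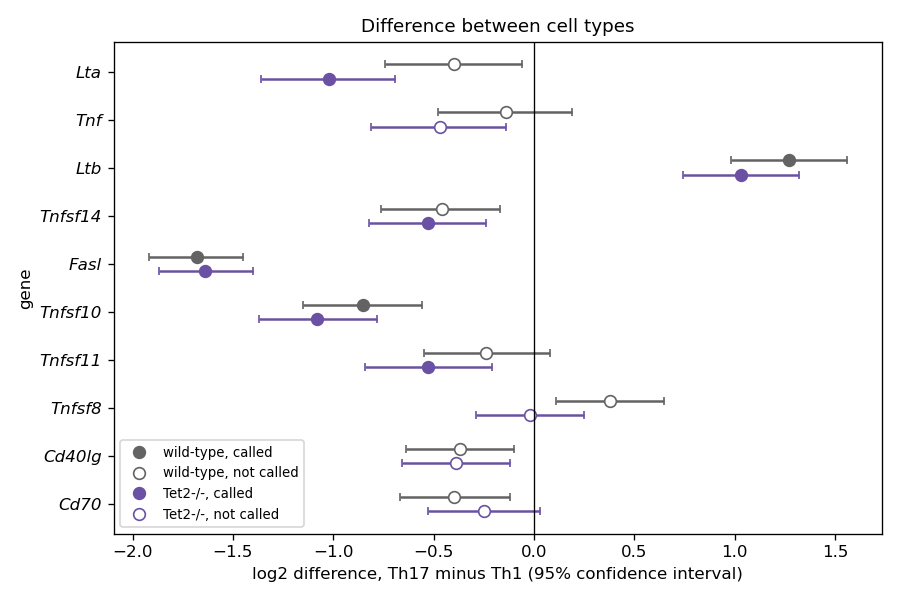
Log2 difference between Th17 and Th1 cells (x axis) for the 10 ligand genes (y axis) in wild-type (grey) and Tet2-/- (purple) cells, with 95% confidence intervals from limma; filled points have an adjusted p under 0.05. Ltb is the sole member called higher in Th17 cells, at 1.27 and 1.03, while Fasl lies farthest to the left at -1.68 and -1.64.

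Arrays of the cell types did not overlap for 9 of 10 members in wild-type cells, where this held for 51.9% of all genes, and for 9 of 10 in Tet2-/- cells, where it held for 56.4%. The median difference of the 10 members was -0.38 and -0.50, beside -0.01 over all genes in each genotype. Of all calls, 62.5% were higher in Th17 cells in wild-type and 68.5% in Tet2-/- cells. After a second quantile normalization these shares were 51.6% and 55.7%. Calls over all genes then numbered 1309 in wild-type and 1649 in Tet2-/- cells, fewer than the 1689 and 2078 before, while 6 and 8 members were called. In wild-type cells Lta (-0.53, limma adjusted p = 0.0393), Tnfsf14 (-0.60, 0.0145) and Cd40lg (-0.52, 0.0222) then joined, and in Tet2-/- cells Tnf (-0.56, 0.0206) and Cd40lg (-0.55, 0.0131). With no moderation of the variance Fasl alone was called in either genotype. Without the Th17 arrays at either extreme of the Y-linked level, wild-type replicate 1 and Tet2-/- replicate 2, limma kept the calls of Fasl, Ltb and Tnfsf10 in both genotypes and of Lta in Tet2-/- cells (limma adjusted p = 0.0323), but not those of Tnfsf11 (0.230) and Tnfsf14 (0.148).

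The second comparison concerns Tet2 loss and the ligands of Th17 cells. None of the 10 members passed the test, and limma called 0 of 19938 genes (0%), with 848 at an unadjusted p under 0.05 and 0 calls with no moderation of the variance. Lta was nearest to a call: it was 1.93-fold lower in Tet2-/- Th17 cells and ranked 4 by p among all genes. Of the members, 9 read lower and 1 higher in Tet2-/- cells, with a median difference of -0.26 beside 0.02 over all genes. Besides Lta, the unadjusted p was under 0.05 for Tnf, Fasl, Tnfsf8 and Cd40lg, each lower in Tet2-/- cells.

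For Lta the wild-type Th17 arrays (9.71 and 9.95) and the Tet2-/- arrays (8.98 and 8.77) stood well apart. The difference was -0.95 (SE 0.155, confidence interval -1.29 to -0.62, limma adjusted p = 0.178). Over 20 alternatives it ran from -1.07 to -0.83, with limma adjusted p from 0.0969 to 1.00 and 0 calls. Adjusted for the Y-linked level it was -0.90, and without the arrays of highest and lowest Y-linked level -0.96. The latter setting left a single Th17 array per genotype, so it gives a size with no spread within those groups.

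Tnf, at 10.59 and 10.74 in wild-type and 10.31 and 10.11 in Tet2-/- Th17 cells, differed by -0.45 (confidence interval -0.79 to -0.12, limma adjusted p = 0.960). Its neighbour Ltb differed by -0.12 (confidence interval -0.41 to 0.17), with overlapping arrays. Tnfsf8 differed by -0.38 (confidence interval -0.65 to -0.11, limma adjusted p = 0.956), so that the level of wild-type Th17 cells, the highest of the 4 groups, was not seen in Tet2-/- Th17 cells. Cd40lg, an X-linked gene, differed by -0.34 (confidence interval -0.61 to -0.06, limma adjusted p = 0.999) in arrays that also differ in Xist, and by -0.31 after adjustment for the Y-linked level. Fasl differed by -0.27 (confidence interval -0.50 to -0.03), at a level within the range of olfactory receptor genes. Tnfsf11 differed by -0.25, Tnfsf14 by -0.10, Tnfsf10 by -0.08 and Cd70 by 0.03, and each of these intervals included 0. The arrays of the genotypes did not overlap for 7 of 10 members, where this held for 33.2% of all genes.

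**Figure D3:**
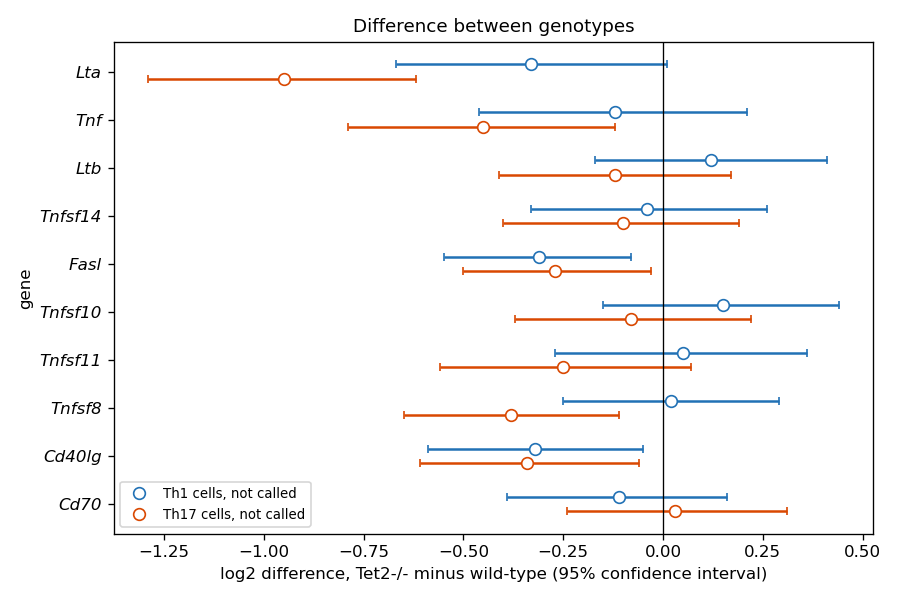
Log2 difference between Tet2-/- and wild-type cells (x axis) for the 10 ligand genes (y axis) in Th1 (blue) and Th17 (orange) cells, with 95% confidence intervals from limma; all points are open because no member had an adjusted p under 0.05. Lta in Th17 cells lies farthest to the left at -0.95, and Fasl and Cd40lg lie left of 0 in both cell types.

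The third comparison asks the same of Th1 cells. No member passed the test, where limma called 1 of 19938 genes (0.00502%, the gene Ifng) and 1145 had an unadjusted p under 0.05. The members with an unadjusted p under 0.05 were Fasl, from 8.13 and 8.12 to 7.87 and 7.76 (-0.31, confidence interval -0.55 to -0.08, limma adjusted p = 0.824), and Cd40lg, from 9.44 and 9.50 to 9.02 and 9.28 (-0.32, confidence interval -0.59 to -0.05, limma adjusted p = 0.827). Lta differed by -0.33 (confidence interval -0.67 to 0.01, limma adjusted p = 0.853), and by -0.12 without Tet2-/- Th1 replicate 2. Tnf differed by -0.12, Ltb by 0.12, Tnfsf10 by 0.15, Cd70 by -0.11, Tnfsf11 by 0.05, Tnfsf14 by -0.04 and Tnfsf8 by 0.02, each with an interval that included 0. Of the 10 members 6 read lower and 4 higher, with a median of -0.08 beside 0.01 over all genes. Arrays of the genotypes did not overlap for 5 of 10 members and for 32.7% of all genes.

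The effects of Tet2 loss in the 2 cell types were then compared. Limma called 0 members and 0 of 19938 genes (0%) for the difference between them, also with no moderation, with 908 genes at an unadjusted p under 0.05. The effect in Th17 minus that in Th1 cells was -0.62 for Lta (confidence interval -1.10 to -0.15, limma adjusted p = 0.999) and -0.40 for Tnfsf8 (confidence interval -0.78 to -0.02, limma adjusted p = 0.999). Averaged over the cell types, limma called 0 members and 0 genes (0%), also with no moderation, with 1060 at an unadjusted p under 0.05. The mean effect was -0.64 for Lta (SE 0.110, confidence interval -0.88 to -0.40, limma adjusted p = 0.197), -0.33 for Cd40lg (0.806), -0.29 for Fasl (0.804) and -0.29 for Tnf (0.922). Every Tet2-/- array of Lta, Cd40lg and Fasl lay below both wild-type arrays of its cell type, whereas for Tnf this held in Th17 cells alone. How many of all genes keep the same order in both cell types was not counted. In either direction, arrays of the genotypes did not overlap for 32.7% of all genes in Th1 and 33.2% in Th17 cells. For Fasl the Th17 arrays lay within the range of olfactory receptor genes, so its order there is not one of shown expression, and the mean effect of -0.29 draws equally on them. These contrasts and those between cell types use the same 8 arrays, so they are not independent of each other.

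Other ligands of the superfamily were measured for 6 of 8 genes listed, Tnfsf12 and Tnfsf13 having no probeset of their own. Tnfsf4, which encodes OX40 ligand, was the 1 called member of this list and lies on chromosome 1 with Tnfsf18 and Fasl. It read 7.73 and 7.24 in wild-type and 7.28 and 7.91 in Tet2-/- Th1 cells, against 6.77 and 6.62 in wild-type and 6.67 and 6.96 in Tet2-/- Th17 cells. Th17 arrays lay below Th1 arrays in either genotype, by -0.79 (limma adjusted p = 0.0302) in wild-type and -0.78 (0.0281) in Tet2-/- cells. Calls over all genes made up 8.47% in wild-type and 10.4% in Tet2-/- cells. Tnfsf9, the ligand of 4-1BB, read 6.83 to 7.07 in all groups, while Tnfsf13b, Tnfsf18 and Eda lay within the range of olfactory receptor genes throughout. Between genotypes 0 of 6 were called in either cell type, with differences from -0.13 to 0.22.

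The list of receptors of the ligands also held Btla, a partner of Tnfrsf14 rather than a receptor of these ligands, which was not called in any comparison. Of this list 12 of 12 genes were measured. Among them 1 was called higher in wild-type and 3 in Tet2-/- Th17 cells, and 0 lower. Over all genes, 8.47% were called in wild-type and 10.4% in Tet2-/- cells, so the wild-type count is near that share. Tnfrsf1a, the TNF receptor with a death domain, rose by 0.50 in Th17 cells of either genotype (limma adjusted p = 0.0466 and 0.0414). Tnfrsf14, the HVEM receptor of Tnfsf14, was higher by 0.58 in Tet2-/- Th17 cells (limma adjusted p = 0.0252), and Tnfrsf8, the CD30 receptor of Tnfsf8, by 0.68 (0.0229). Between genotypes 0 of 12 were called. Tnfrsf14 had the smallest p in both cell types, at 8.70 and 8.49 in wild-type and 9.01 and 9.09 in Tet2-/- Th1 cells and 8.77 and 9.15 against 9.70 and 9.56 in Th17 cells. Its Tet2-/- arrays lay above both wild-type arrays in each cell type, by 0.46 in Th1 (limma adjusted p = 0.824) and 0.66 in Th17 cells (0.637). Cd40, Ltbr, Tnfrsf11a and Tnfrsf11b, the receptors of Cd40lg, Ltb and Tnfsf11, lay within the range of olfactory receptor genes in all groups.

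Of 27 measured genes of TRAF, death domain and NF-kB signalling, 4 were called higher and 2 lower in wild-type Th17 than Th1 cells, and 2 and 5 in Tet2-/- cells. The share called over all genes was 8.47% in wild-type and 10.4% in Tet2-/- cells. Traf1, an adaptor that NF-kB induces, was lower in Th17 cells (-0.90 and -0.64 in wild-type and Tet2-/- cells, limma adjusted p = 0.00113 and 0.00826), as was Nfkb2, the precursor of the NF-kB subunit p52 (-0.74 and -0.93, limma adjusted p = 0.00482 and 0.000808). Ripk3, a kinase of necroptosis, was higher (0.54 and 0.62, limma adjusted p = 0.0253 and 0.0103). In wild-type cells Fadd, the adaptor of death receptors, was higher by 0.39 (limma adjusted p = 0.0432) and Map3k14, the kinase NIK, by 0.43 (0.0391). The Th1 means of Fadd, 6.63 in wild-type and 6.94 in Tet2-/- cells, lay within the range of olfactory receptor genes. Expression of Fadd is thus not shown there. In Tet2-/- cells the deubiquitinase Cyld was higher by 0.72 (0.00826), while Traf4 (-0.52, 0.0257) and the NF-kB inhibitors Nfkbib (-0.52, 0.0312) and Nfkbie (-0.58, 0.0341) were lower. Casp8, the initiator caspase of death receptors, was higher by 0.55 in wild-type cells (0.0223) and differed by 0.40 in Tet2-/- cells (0.0754). Between genotypes 0 of 27 were called in either cell type, with a median of 0.08 in Th1 and 0.03 in Th17 cells.

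Of 17 transcription factors of T cell activation, 3 were called higher and 2 lower in wild-type Th17 cells, and 1 and 3 in Tet2-/- cells. Again, 8.47% of all genes were called in wild-type and 10.4% in Tet2-/- cells. Nr4a3 (-0.83 and -1.30, limma adjusted p = 0.00378 and 0.000122) and Nr4a2 (-0.77 and -0.92, 0.0148 and 0.00419) were lower in Th17 cells of both genotypes and Nfatc3 was higher (0.50 and 0.89, 0.0293 and 0.000722). Egr1 (0.75, limma adjusted p = 0.00478) and Nr4a1 (0.69, 0.00958) were higher in wild-type Th17 cells, and Egr2 was lower in Tet2-/- Th17 cells (-0.58, 0.0413). Between genotypes 0 of 17 were called. Of the proteases that cut ligands at or within the membrane, 0 of 4 were called in any comparison. Adam17, which sheds TNF, differed by 0.49 and 0.47 between Th17 and Th1 cells (limma adjusted p = 0.0506 and 0.0504).

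Fasl, Lta, Ltb and Tnfsf10 had the widest ranges of group means, at 1.95, 1.35, 1.27 and 1.08. The genes nearest to each were found by the root mean square difference of centred values over the 8 arrays, as a description. For Fasl these were Zbtb32 (0.184 log2 units), Cd83 (0.187) and Igfbp7 (0.202). For Ltb they were Stab1 (0.0836), Podnl1 (0.0921) and Tasp1 (0.0932), and for Tnfsf10 Chst11 (0.0924), Cd274 (0.103), which encodes PD-L1, and Gramd1b (0.104). For Lta the nearest was Hbegf (0.192), an EGF receptor ligand, at 8.61 and 8.75 in wild-type Th1, 8.69 and 8.33 in Tet2-/- Th1, 8.24 and 8.47 in wild-type Th17 and 7.87 and 7.78 in Tet2-/- Th17 cells. Like Lta, Hbegf was lowest on the Tet2-/- Th17 arrays, but it was picked for its nearness to Lta on these same arrays. Lce3a (0.211) and Vmn1r86 (0.228) followed. All arrays of Lce3a, at 5.41 to 6.74, lay below the olfactory receptor mark of their group. The Tet2-/- Th17 arrays of Vmn1r86 (6.17 and 5.93) did too, so expression is not shown there.

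**Figure D4:**
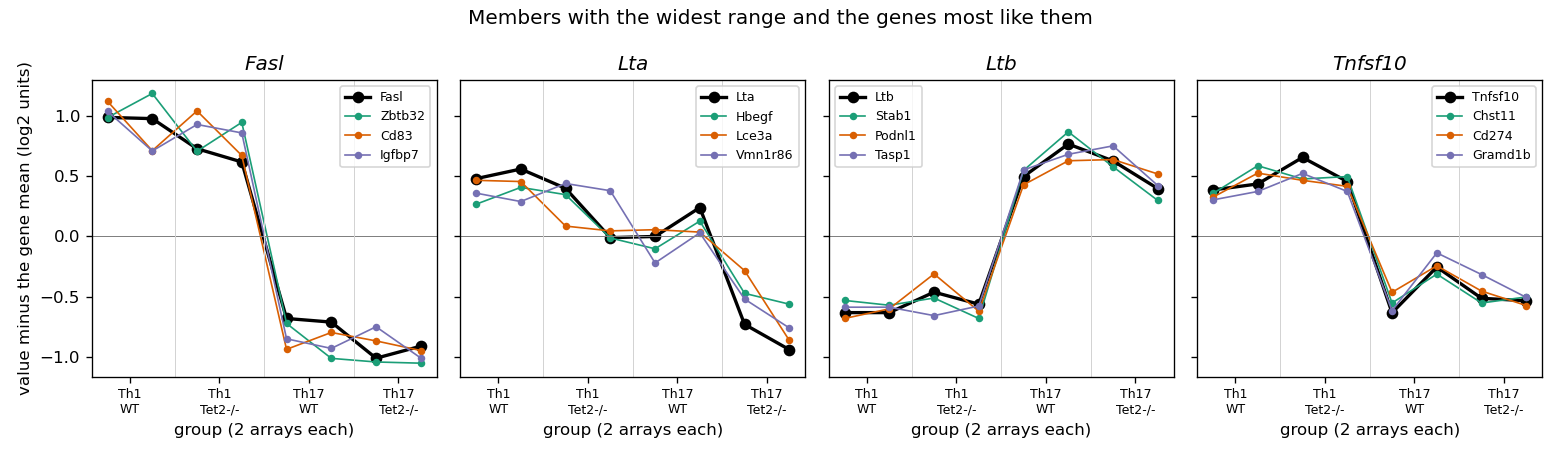
Values minus the mean of each gene over the 8 arrays, in log2 units (y axis), for Fasl, Lta, Ltb and Tnfsf10 (black) and the 3 genes nearest to each (coloured), by group (x axis, 2 arrays each). Lines only join the arrays of a gene; Lta and Hbegf are lowest in Tet2-/- Th17 cells, whereas the other panels change mainly between Th1 and Th17 cells.

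Markers of other cells that make or respond to these ligands were read beside the members. All 6 markers of CD8 T and NK cells, 4 of 5 measured B cell markers and 7 of 8 myeloid and dendritic cell markers lay within the range of olfactory receptor genes in every group, among them Cd8a, Ms4a1 and Csf1r. The exceptions were Cd79b, above that range in Th17 cells, and the myeloid marker Cd68, above it in every group. Cd68 read 7.55 to 7.99 in Th1 and 7.28 to 7.45 in Th17 cells (-0.47 in wild-type cells, limma adjusted p = 0.0619). Means of these lists per array ran from 5.03 to 5.28, from 5.25 to 5.45 and from 5.64 to 5.93. The myeloid list read 5.79 to 5.93 in Th1 and 5.64 to 5.76 in Th17 cells, and the list of CD8 T and NK cells 5.13 to 5.28 and 5.03 to 5.17. All 8 myeloid markers were lower in wild-type Th17 than Th1 cells (median -0.18) and 7 of 8 in Tet2-/- cells (-0.10). All 6 markers of CD8 T and NK cells were lower in wild-type Th17 cells (median -0.23), and 4 of 6 were higher in Tet2-/- cells (median 0.06), with 0 called in any of these. The median of the olfactory receptor genes was also lower in Th17 cells, at 5.10 against 5.42 in wild-type and 5.17 against 5.49 in Tet2-/- cells. The part of these shifts in the differences of Fasl and Tnfsf10 was not tested. The mean of 7 stromal and endothelial markers was 6.72 and 6.73 in wild-type and 6.92 and 6.90 in Tet2-/- Th1 cells. In Th17 cells it was 6.77 and 6.87 against 6.96 and 7.06. With Tet2 loss 6 of 7 read higher in Th1 and 7 of 7 in Th17 cells, with 0 called. Cdh5 and Dcn lay within the range of olfactory receptor genes in every group, and Col1a1, Col1a2, Col3a1 and Sparc above it. Between Th17 and Th1 cells Pecam1 was called higher (1.32 in wild-type and 1.13 in Tet2-/- cells) and Sparc lower (-0.75 and -1.06). Dcn was called higher in Tet2-/- cells (1.01). The part of these markers in the differences of the ligands was not tested.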

How the data were processed

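Array values were deposited as 1 log2 value per probeset, and the submitters' processing notes name Partek and RMA as what the authors used; the log2 scale was taken from the values, and versions and genome build are not given in the sources used here. Of 35556 probesets, 21789 had 1 symbol, 1621 several and 12146 none listed; Entrez IDs of 21698 were in a GRCm38 gene table, which changed 0 symbols. Group means were estimated from the 8 arrays together by lmFit and eBayes (trend on intensity) of limma 3.58.1, run under R 4.3.3, with 4 residual and 8.44 prior degrees of freedom. Tests were two-sided, adjusted by Benjamini-Hochberg over 19938 genes and called at 0.05; intervals are 95%. The fit was tested on simulated data. The members and lists were chosen with earlier results of these data known. Named genes are all members, called genes of the lists or those with the smallest p, and the 3 genes nearest to the 4 widest members. Alternatives covered the replicate block, variance, intensity trend, the groups compared alone, weights, dim genes, probesets, normalization, Y-linked level, and leaving out arrays. P values measure the spread between cultures named biological replicates. With 2 arrays a group their number limits the precision, and an exact permutation test of 2 against 2 cannot go below p = 0.333.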

Additional observations from a re-analysis of the deposited data

How the results depend on the processing

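The count of members called stayed at 0 in each of the 4 genotype contrasts under all alternatives run. Between Th17 and Th1 cells it was 3 in wild-type and 6 in Tet2-/- cells; with no variance moderation it was 1 and 1, and with a second quantile normalization 6 in wild-type cells. Leaving out 1 array gave 3 to 4 and 4 to 6. The count of all genes called between cell types, 1689 and 2078, ran from 87 (no moderation) to 1810 and from 166 to 2712; it fell to 667 without Th17 wild-type replicate 2 and to 815 without Th17 Tet2-/- replicate 1. Without the latter, limma called 9 genes for Tet2 loss in Th17 cells. Of 910 values of single members under the alternatives, 860 kept direction and side of the threshold, 21 lost and 16 gained a call, and 13 changed sign; the cause was not tested.

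Sign changes concerned differences near 0. For Tet2 loss in Th1 cells the range without single arrays was -0.34 to 0.09 for Tnf, -0.13 to 0.22 for Tnfsf11, -0.20 to 0.12 for Tnfsf14 and -0.07 to 0.12 for Tnfsf8. For Tet2 loss in Th17 cells it was -0.25 to 0.02 for Ltb, -0.27 to 0.11 for Tnfsf10 and -0.12 to 0.19 for Cd70. Tnfsf8 between cell types in Tet2-/- cells ran from -0.12 to 0.08, with 0.00 without the arrays of highest and lowest Y-linked level.

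Deviations of same-numbered arrays correlated at -0.19 to 0.05 across genes. The sample titles name no pairs, and this correlation cannot settle whether same-numbered cultures shared an origin. With the replicate block, 4 members and 1411 genes were called between cell types in wild-type and 5 members and 1810 genes in Tet2-/- cells. Cd70 gained a call (limma adjusted p = 0.0490) and Tnfsf11 lost its call (0.0564). Between genotypes 0 members were called, with 1 gene called for Tet2 loss in Th1 cells. With no moderation Ltb (0.0662 and 0.0668), Tnfsf10 (0.121 and 0.0788) and, in Tet2-/- cells, Lta (0.106), Tnfsf11 (0.212) and Tnfsf14 (0.187) lost theirs. Cd70 could not be given with dim genes left out. Values near the olfactory receptor range, as for Fasl and Tnfsf10 in Th17 cells, limit how much of a fall could be seen.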
